A study of Arabidopsis thaliana with 12 samples.

Results

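The transcripts described here stood higher early in the night (ZT18) than at dawn, midday or evening. The seedlings were Arabidopsis thaliana plants that overexpress the clock gene CCA1, and their lights went off at ZT16. A member is a probe set, a group of short probes that reports one transcript, whose lowest value on the 3 ZT18 arrays was at least 6 on the log2 scale. That value also had to exceed the highest value on the other 9 arrays by at least 0.5, which is called the margin below. Of 22746 probe sets that are not chip controls, 155 met the rule. The heat-shock genes AT5G48570 and Hop3 were left out by name, which leaves 153 members. AT1G53540 and AT5G51440 were on the same exclusion list but did not meet the rule.

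CCA1 is a MYB-type transcription factor that forms part of the morning loop of the plant circadian clock, a set of repressors that limit one another's expression over the day. Overexpression of CCA1 from a constitutive promoter is known to stop most rhythms in constant light, while a day and night cycle can still drive daily changes. At night, leaves live on the starch stored during the day, growth in many seedlings is paced by darkness, and many genes follow light, sugar or the clock.

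All 12 arrays measured the total RNA of shoots (the labels give aerial part) from CCA1-ox seedlings of the Columbia background, aged 10 days and grown on agar with full-strength Murashige and Skoog salts and 1% sucrose. The plates stood in 16 h of light and 8 h of darkness. Plants were harvested when the lights came on (ZT0), at midday (ZT6), in the evening while the light was still on (ZT12) and in the dark (ZT18), with 3 replicates each. Every group carries the overexpression, and wild-type seedlings, which the study's design also names, were not analysed here, so no value below separates the time of day from the genotype. Platform annotation used here paired no probe set with CCA1 alone, so the transgene was not checked. A separate harvest-time entry in the labels contradicts the titles on 9 of the 12 arrays. Titles, source names and descriptions give the same times and were used, and the groups by the other entry are given as an alternative.

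All values are log2 expression levels, so a difference of 1 is 2-fold, and a level under 4 was taken as too dim to measure. Between 39.5% and 40.3% of the values on each array lay under 4, and the array medians ran from 6.26 to 6.43. An array measures RNA from whole shoots, so fewer cells of a type and less RNA per cell cannot be told apart. Leaf photosynthesis markers, with 5 of 19 genes on a named probe set, had a high summed level, at 15.93 to 16.17 at ZT0 and 16.21 to 16.34 at ZT18. Of these, LHCB4.3 was much lower than the others, with means of 5.64 at ZT0 and 7.08 at ZT18. Among root markers 2 of 13 had a named probe set: the myrosinase gene PYK10 was high and the root-hair gene EXPA7 was at the floor.

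The platform annotation paired 74 of the 153 members with 1 gene each, 4 with several genes and 75 with none. Over the whole chip the same annotation named 1 gene for 13513 probe sets and none for 8730. Statements on genes below therefore cover the 74 named members. The 4 members with probe set names ending in _s_at or _x_at can read more than 1 transcript.

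Because the rule was set on the ZT18 arrays, the height of the ZT18 peak is described here and not tested. The members' mean level at ZT18 ran from 6.09 to 13.12, with a median of 9.08. Their ZT18 mean stood above the mean of the next highest time by 0.61 to 3.08 with a median of 1.11, a fold of 1.53 to 8.46 with a median of 2.16. At least a 2-fold difference was reached by 94 members and a 4-fold difference by 10. Against the mean of the other 9 arrays the median difference was 1.40, and over the 14016 probe sets that reached 4 on at least 3 of the 12 arrays it was -0.0002. On the whole chip, all 3 ZT18 arrays lay above the other 9 for 1112 probe sets, or 4.89%, a share that holds these members because the rule demands it.

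The same rule applied to the other times gave 220 probe sets for ZT0, 33 for ZT6 and 28 for ZT12. At the margin's edge of the ZT18 set, just inside were the immune receptor gene AT4G19530 with a margin of 0.50, AT4G16000 with 0.51 and NET1D with 0.53. Just outside, the nearest named genes were SGT1A, a co-chaperone of immune receptors, with 0.4933, AT1G13670 with 0.4923 and AT1G67910 with 0.4896. A further 754 probe sets had a ZT18 level of at least 6 with a margin between 0 and 0.5, and 37 had a margin of at least 0.5 with a ZT18 array under 6. The size of the set also depends on single arrays: leaving out ZT18 replicate 3 raised the number that met the rule to 254. Leaving out an array can only ease the rule, so all 153 members had to stay.

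**Figure D1:**
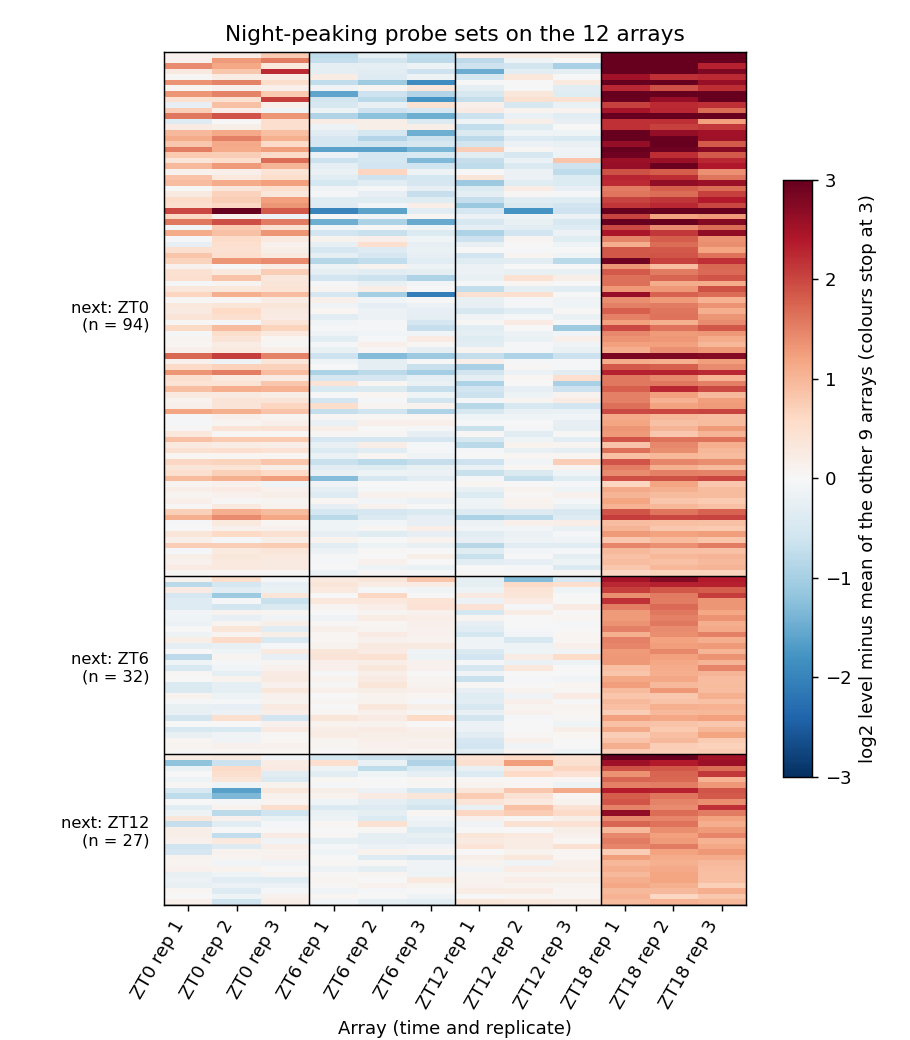
Log2 level of each of the 153 members (lines) on the 12 arrays (columns), minus the member's mean over the 9 arrays of ZT0, ZT6 and ZT12, grouped by the time with the next highest mean. The ZT18 columns are red by the choice of members. By the grouping, the 94 members whose next highest time was ZT0 have a ZT0 mean above their mean of the 9 arrays. Many of them are blue at ZT6 and ZT12, but not all: AT3G23550 averaged 4.52 at ZT12, above its mean of 4.29 over the 9 arrays.

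Transport proteins held the highest margin among the named members. AT3G23550, a MATE-type efflux carrier, measured 4.41, 4.52 and 5.06 at ZT0, 3.54, 4.00 and 3.54 at ZT6, 4.52 on all 3 arrays at ZT12, and 7.87, 7.84 and 7.52 at ZT18. Its ZT18 arrays thus lay close together and far above the rest, a pattern that the rule favours. The rest were dim, with all 3 ZT6 arrays under 4. The ZT18 mean was 8.46-fold above that of ZT0 and at least 13.4-fold above that of ZT6, which was set to the detection limit of 4. AT1G22570, of the nitrate and peptide transporter family, measured 4.68, 5.12 and 4.52 at ZT0, 4.88, 4.95 and 5.41 at ZT6, 4.29, 3.28 and 4.097 at ZT12, and 7.08, 7.33 and 6.96 at ZT18. Its 3 ZT18 arrays were 4.12-fold above ZT6, the next highest time, by their means, and its ZT12 arrays were the lowest.

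AT1G35350, of the PHO1 family of phosphate exporters, measured 6.65, 6.59 and 6.90 at ZT0, 6.25, 6.57 and 6.57 at ZT6, 5.67, 6.03 and 6.39 at ZT12, and 8.58, 8.46 and 8.52 at ZT18. The ZT18 mean was 3.50-fold above that of ZT0, and the other 3 times overlapped or nearly touched. A mitochondrial carrier family gene, AT3G51870, stood at 7.54 to 7.63 by its means at the other 3 times and at 8.59 ± 0.05 (SD, n = 3) at ZT18.

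Among the 8 metabolic enzymes, ALN showed the largest step. It encodes allantoinase, which opens the ring of allantoin in the breakdown of purines and so frees their nitrogen. The gene measured 5.44, 5.51 and 5.53 at ZT0, 5.26, 5.42 and 5.72 at ZT6, 5.09, 5.36 and 5.03 at ZT12, and 7.63, 7.32 and 7.60 at ZT18, a 4.06-fold step over ZT0. Its level was much alike at dawn, midday and evening, and no array of these came near the ZT18 values. PDC2, a pyruvate decarboxylase of the fermentation pathway to ethanol, measured 10.73, 10.19 and 10.17 at ZT18, while its other 9 arrays lay between 8.85 and 9.44.

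UGT85A4, a glycosyltransferase, measured 7.60, 8.00 and 7.56 at ZT0, 5.98, 5.61 and 5.83 at ZT6, 5.69, 6.09 and 6.03 at ZT12, and 9.79, 9.46 and 9.04 at ZT18. Its 3 ZT0 arrays formed a middle step between the day arrays and the ZT18 arrays. The same middle step at ZT0 was present for UGT71C5, which attaches glucose to abscisic acid, at 8.69 ± 0.12 (SD, n = 3) against 7.94 ± 0.07 at ZT6 and 9.47 ± 0.03 at ZT18. SCPL34, a serine carboxypeptidase-like protein, gave 9.94 ± 0.23 at ZT0, 9.15 ± 0.01 at ZT6 and 11.14 ± 0.14 at ZT18. A gene for an AMP-dependent synthetase, AT1G75960, ran the other way across the day, with 6.76, 6.14 and 6.31 at ZT0, 6.71, 6.64 and 6.97 at ZT6, 7.55, 7.68 and 7.501 at ZT12, and 9.57, 8.60 and 8.47 at ZT18. Its evening arrays all lay above its dawn and midday arrays, and ZT18 replicate 1 stood apart from replicates 2 and 3. AT5G14450, a GDSL-type lipase, was at 11.23 ± 0.11 and AT5G21105, an ascorbate oxidase-like protein, at 9.27 ± 0.09 at ZT18, against highest other means of 10.28 and 8.42.

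Genes for the cell wall and for glycans made up 6 members, with ZT18 steps of 0.90 to 1.89. AT2G31110, a TBL40 protein of a family that places acetyl groups on wall sugars, measured 6.13, 5.57 and 5.68 at ZT0, 6.17, 5.84 and 5.77 at ZT6, 5.73, 6.29 and 5.75 at ZT12, and 7.96, 7.75 and 7.70 at ZT18. AT5G62360, of the family of inhibitors of invertase and pectin methylesterase, measured 8.59, 8.78 and 8.73 at ZT18, while its other arrays spread from 6.05 to 7.42. The other 9 arrays of both genes were mixed in order with no time standing apart. CSLA03, of the glucomannan synthase family, was at 7.50 ± 0.22, ENGase85B, an enzyme that cuts N-glycans, at 7.86 ± 0.22, and AT1G76270, of the O-fucosyltransferase family, at 8.48 ± 0.16 at ZT18 (SD, n = 3). AT2G34510, a DUF642 wall protein, measured 9.20, 9.03 and 9.13 at ZT0, 9.66, 9.77 and 10.00 at ZT6, 10.01, 9.55 and 9.83 at ZT12, and 11.10, 11.28 and 10.91 at ZT18, so its dawn arrays were the lowest of all.

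Kinases that sit in the membrane or the cytoplasm made up 6 members. AT1G53430, a receptor kinase with leucine-rich repeats, measured 8.77, 8.59 and 8.84 at ZT0, 8.67, 8.71 and 8.75 at ZT6, 8.84, 8.79 and 8.57 at ZT12, and 10.24, 10.27 and 10.01 at ZT18. It was flat over the 3 other times and then stood 2.71-fold higher at ZT18. AT3G47570, another receptor kinase with leucine-rich repeats, was at 6.15, 6.33 and 6.83 at ZT0 and at 7.62, 7.74 and 7.98 at ZT18, with 5 of its 6 ZT6 and ZT12 arrays listed near 5.24. The others, all with ZT18 means of 7.31 to 8.46, were the receptor kinase AT1G17230, the lectin receptor kinase AT1G11330 and the protein kinases AT1G03740 and AT5G20050.

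Repeated values of this kind occurred more widely. A value that was the same to 4 decimals on 3 or more of the 9 arrays of ZT0, ZT6 and ZT12 was present in 12 of the 153 members, or 7.84%, and in 3.83% of all probe sets tested. AT5G20050 held one on 5 arrays, and AT3G23550, AT1G11330 and the formin gene AT3G07540 on 4 each. For such members the spread among those arrays understates the measurement error.

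Of the 3 members that encode immune receptors with a TIR domain, AT5G46450 and AT4G19530 were lower at both ZT6 and ZT12 than at ZT0 and AT3G04210 was higher at ZT12, by limma. AT3G04210 measured 5.98, 4.83 and 6.80 at ZT0, 6.65, 6.28 and 5.94 at ZT6, 6.82, 7.27 and 7.61 at ZT12, and 8.82, 8.78 and 8.34 at ZT18. AT5G46450 measured 7.85, 7.95 and 7.71 at ZT0, 7.16, 7.29 and 7.18 at ZT6, 7.37, 7.43 and 7.27 at ZT12, and 8.99, 9.09 and 8.79 at ZT18. By its means the first of these genes was lowest at dawn and the other was lowest by day; the difference between genes was not tested. AT4G19530, at the edge of the rule, averaged 11.95 at ZT18, over 10.83 at dawn, 10.33 at midday and 10.19 in the evening, with adjusted p of 0.0133 and 0.00359 by limma for its falls at ZT6 and ZT12.

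Of the calcium-related members, CML30 and AT2G41090 are calmodulin-like proteins and AT5G57580 is a calmodulin-binding protein. Their levels were high throughout, with ZT18 means of 11.52 ± 0.23, 12.19 ± 0.05 and 11.58 ± 0.13 (SD, n = 3), and their ZT18 steps of 0.87, 0.68 and 1.05 were modest. Members of the cytoskeleton were AT1G21730, a kinesin, AT3G11850, a myosin-binding protein, AT3G07540, a formin that nucleates actin, and NET1D, an actin-binding membrane protein. Their ZT18 means of 9.79, 8.24, 9.84 and 8.49 stood 0.70 to 0.96 above the next highest time, the narrowest range among these groups.

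Regulators and DNA-related proteins made up 6 members. AT4G33980, known as COR28, a cold-responsive partner of the clock, measured 8.28, 9.27 and 8.11 at ZT0, 4.29, 4.67 and 5.97 at ZT6, 5.78, 4.50 and 5.66 at ZT12, and 9.86, 9.98 and 9.82 at ZT18. It had the widest swing between the other 3 times of all members, 3.57, and only a narrow gap between its highest dawn array and its ZT18 arrays. CIL, a CCT-domain protein related to a regulator of chloroplast protein import, measured 6.23, 6.56 and 6.01 at ZT0, 4.89, 4.87 and 4.95 at ZT6, 4.87, 5.24 and 5.19 at ZT12, and 8.05, 8.51 and 7.27 at ZT18. Its ZT18 arrays were spread over more than 1 log2 unit, with replicate 3 the lowest.

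AT5G58900, a MYB-type factor, was at 9.63 to 9.82 by its means at the other 3 times and at 11.08 ± 0.25 (SD, n = 3) at ZT18. AT5G46780, a VQ-motif protein, was at 10.37 ± 0.02 at ZT18 over a highest other mean of 9.56. AT5G44680, a DNA glycosylase family gene, averaged 11.67 at ZT18, over 10.32 at dawn, 10.74 at midday and 10.77 in the evening. STN1, a telomere-capping protein, was at 6.01 to 6.11 by day and at dawn and at 7.81, 7.79 and 7.13 at ZT18. Its neighbour on the chromosome, AT1G07135, a glycine-rich protein, is a member too, with 8.32, 8.28 and 8.08 at ZT18. These genes do not overlap, and no other named members lay next to each other.

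Proteins that degrade, fold or sort other proteins made up 6 members. AT4G21870, an HSP20-like small heat-shock protein, measured 10.59, 10.05 and 9.74 at ZT0, 9.71, 9.24 and 9.32 at ZT6, 10.10, 9.95 and 9.96 at ZT12, and 12.33, 12.11 and 11.54 at ZT18. At 3.64-fold over the next highest time it was the largest step of this group. The others were the RING-type protein AT4G33940, AT5G57950, a homologue of proteasome assembly factors, the IST1-like sorting proteins AT4G32350 and AT4G35730, and the Sec14-like lipid-transfer protein AT2G16380, with ZT18 steps of 0.73 to 1.08.

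A role was not assigned to 28 named members. The largest ZT18 step among them was that of AT2G41990, at 5.93, 6.06 and 5.12 at ZT0, 3.85, 3.51 and 2.73 at ZT6, 4.58, 4.60 and 4.87 at ZT12, and 8.10, 7.94 and 7.20 at ZT18. AT1G17665 measured 6.01, 5.59 and 5.73 at ZT0, 2.87, 2.87 and 3.103 at ZT6, 5.22, 4.52 and 4.37 at ZT12, and 7.76, 7.38 and 7.20 at ZT18. Both were under 4 on all 3 midday arrays, higher again in the evening and highest in the dark. AT4G28085 at 7.76 ± 0.27, AT2G48030 at 9.44 ± 0.55 and AT2G42040 at 11.16 ± 0.23 (SD, n = 3) at ZT18 had their next highest means at ZT0, at 6.03, 7.82 and 9.73. AT3G60320, a DUF630 and DUF632 protein, measured 12.50, 12.55 and 12.35 at ZT18, with its other 9 arrays between 10.69 and 11.35.

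**Figure D2:**
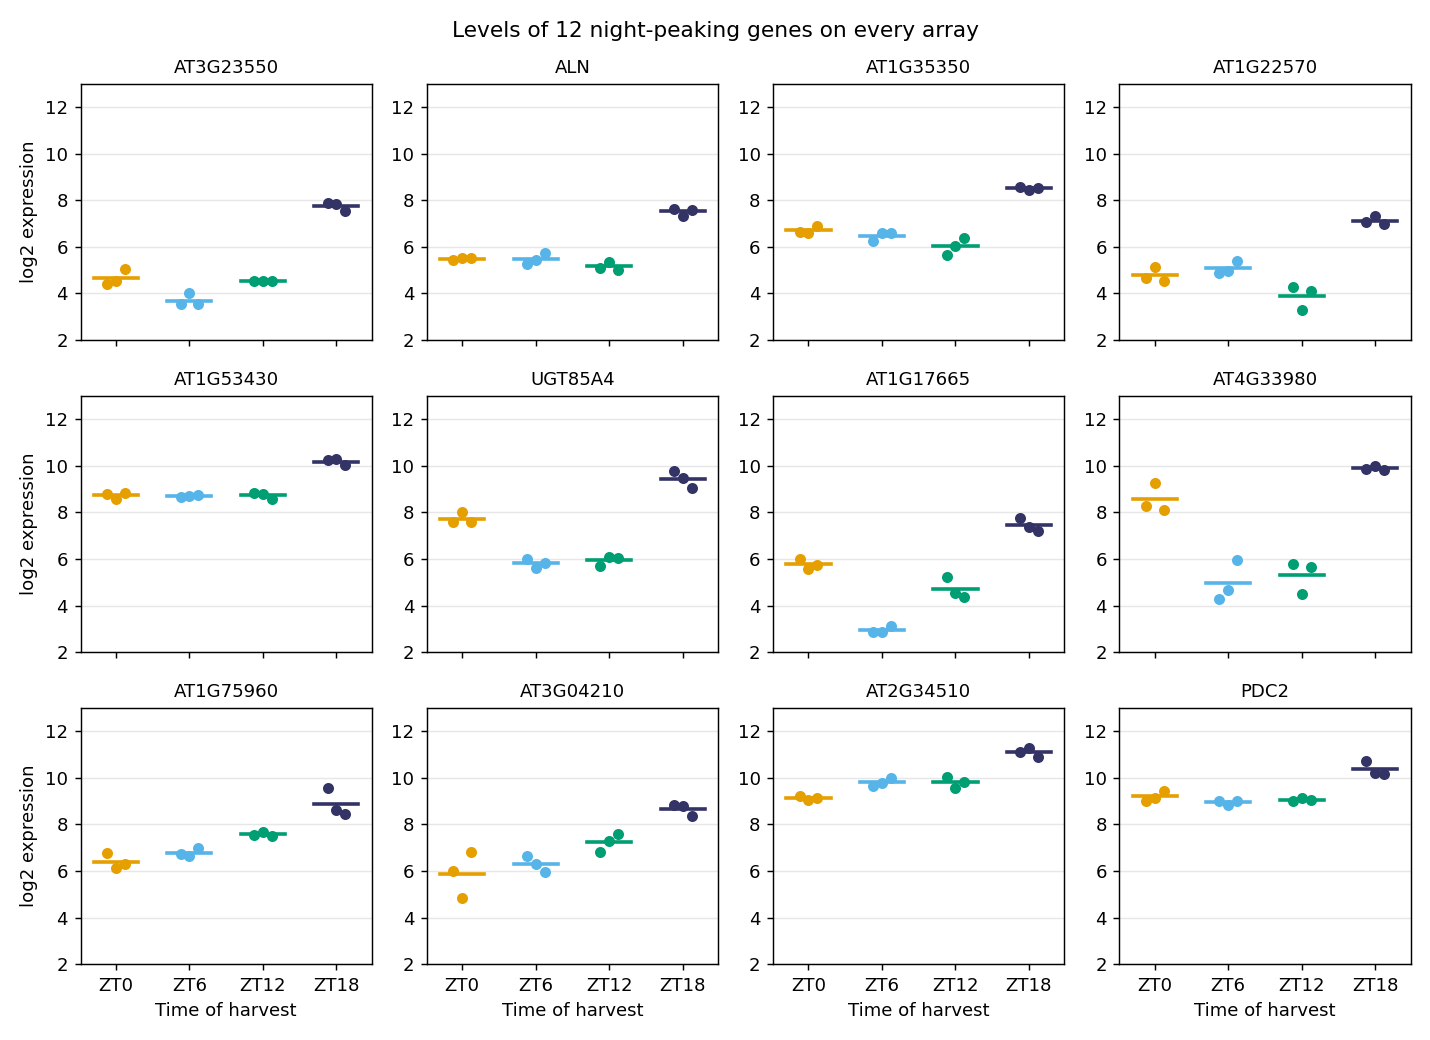
Log2 expression of 12 members on every array, with points for replicates 1 to 3 from left to right and a bar at the mean of each time. AT1G53430 and ALN lie flat until ZT18, UGT85A4 and AT4G33980 are also raised at ZT0, and AT1G75960, AT3G04210 and AT2G34510 are higher at ZT12 than at ZT0.

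**Figure D3:**
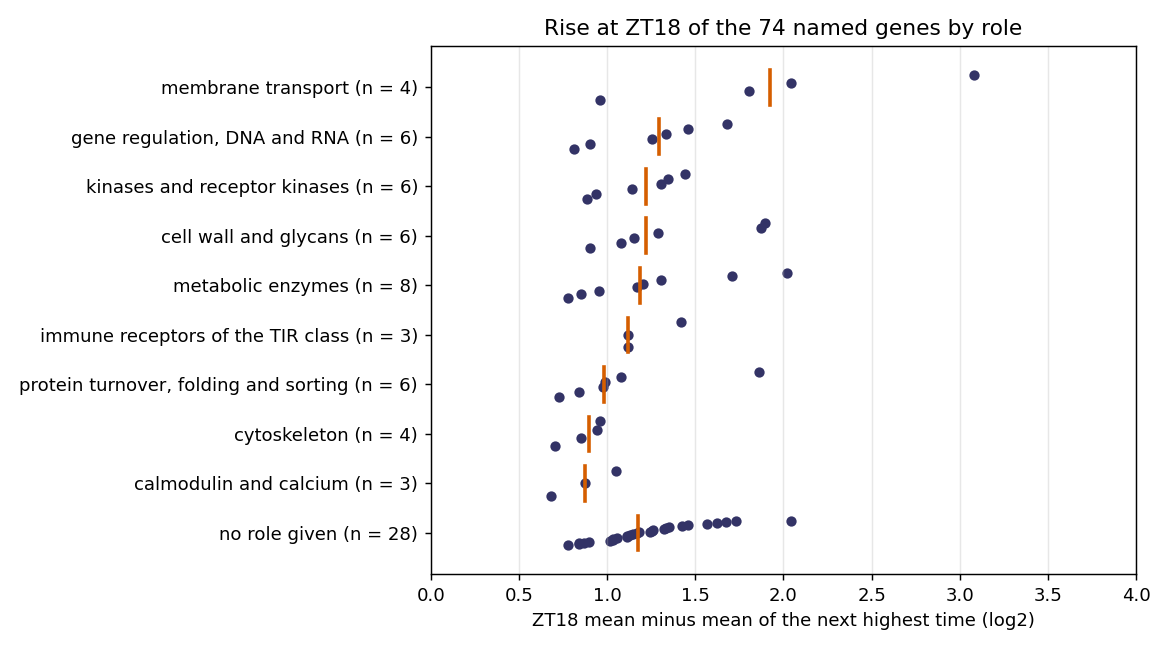
Difference between the ZT18 mean and the mean of the next highest time (log2) for the 74 named members, 1 point per gene, with the group median as a bar. Medians run from 0.87 for the 3 calmodulin and calcium genes to 1.92 for the 4 membrane transport genes; the groups were drawn up by hand and were not tested.

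The order of the members among ZT0, ZT6 and ZT12 was not set by the rule, although the rule does hold each member's highest value at those times at least 0.5 below its ZT18 arrays. It was tested with limma on the 9 arrays of these times over 13924 probe sets, with Benjamini-Hochberg adjustment over all of them and an adjusted p of 0.05 as the threshold. All 153 members passed the filter, which asked for a level of 4 on at least 3 of those 9 arrays and did not use ZT18.

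Dawn was the most frequent next highest time. The next highest mean was that of ZT0 in 94 members (61.4%), that of ZT6 in 32 (20.9%) and that of ZT12 in 27 (17.6%). Over all probe sets tested, the highest of these 3 means was that of ZT0 in 45.6%, that of ZT6 in 31.6% and that of ZT12 in 22.8%. From midday's side, 58 members were lower at ZT6 than at ZT0 and 7 were higher, out of 65 called. That makes 42.5% of the members called, against 58.9% of all probe sets tested, with 37.9% lower against a background of 29.8% and 4.58% higher against 29.1%. The median difference was -0.25 among the members and -0.01 over all probe sets. A smaller share of the members than of all probe sets was thus called, and the gap lay on the side of higher values at ZT6.

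In the evening the balance was much the same. At ZT12, 57 members (37.3%) were lower than at ZT0 and 10 (6.54%) were higher, against 29.8% and 26.8% of all probe sets. The total of 67 called, 43.8%, stands beside 56.6% of all probe sets. Being lower than dawn at both times held for 44 members, 28.8% against 24.6% of all probe sets, and being higher at both for 5, 3.27% against 23.6%. Neither comparison with ZT0 called 70 members.

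Among the named members, those that fell after dawn held the largest differences. AT4G33980 fell by 3.57 from ZT0 to ZT6 (SE 0.47, adjusted p = 9.06e-05 by limma), and the same comparison at ZT12 gave -3.24 (SE 0.47, adjusted p = 0.000186). AT1G17665 fell by 2.82 at ZT6 (SE 0.23, adjusted p = 2.81e-06 by limma) and AT2G41990 by 2.34 (SE 0.31, adjusted p = 8.82e-05). All 3 ZT6 arrays of both genes were under 4, so the sizes of these falls are poorly measured. AT4G39675 fell by 2.08 (SE 0.33, adjusted p = 0.000325 by limma), with 1 ZT6 array under 4. UGT85A4 fell by 1.91 at ZT6, and its ZT12 mean differed from dawn by -1.78, with adjusted p of 6.76e-06 and 1.13e-05 by limma. The other named members that fell by more than 1 at ZT6 were AT4G28085, AT2G42040, CIL, AT2G30990, AT3G47570 and AT2G48030, by 1.78 to 1.09.

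Smaller falls at ZT6 passed the test as well. They included SCPL34 by 0.79 and UGT71C5 by 0.75, with adjusted p of 0.000173 and 0.000333 by limma, and the immune receptor AT5G46450 by 0.63 with 0.000909. Among the transporters, AT3G23550 fell by 0.97 at ZT6 (adjusted p = 0.00204), within a range partly below 4, and AT1G35350 fell by 0.69 at ZT12 against ZT0 (adjusted p = 0.0107).

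Members that were higher by day than at dawn were few. AT2G34510 was higher than at ZT0 by 0.69 at ZT6 and by 0.68 at ZT12 (SE 0.14 each, adjusted p = 0.00136 and 0.00154 by limma). AT5G44680 was higher by 0.41 and 0.44, with adjusted p of 0.00389 and 0.00261. CML30 rose by 0.27 and 0.30, with adjusted p of 0.0107 and 0.00693; its midday call was lost when each array was centred on its median, at an adjusted p of 0.0846. At ZT12 against ZT0, AT1G75960 was higher by 1.17 (SE 0.17, adjusted p = 0.000182), AT3G04210 by 1.36 (SE 0.42, adjusted p = 0.0168) and AT3G60420 by 0.63 (SE 0.19, adjusted p = 0.0146).

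Between midday and evening, both in the light, few members differed. Of the 153, 6 were higher at ZT12 and 2 were lower, 5.23% together against 2.76% of all probe sets (3.92% higher against 1.46%, 1.31% lower against 1.3%). With each array centred on its median, the split was 10 higher and 1 lower. The total of 8 rests on single arrays. Dropping ZT0 replicate 3 gave 15, dropping ZT12 replicate 1 gave 3, and dropping either other ZT12 array gave 2. Dropping ZT6 replicate 3 gave 1, and dropping ZT6 replicate 2 gave 0 by limma, where 25 members had an unadjusted p under 0.05. AT1G17665 had the clearest change, a rise of 1.75 (SE 0.23, adjusted p = 0.00746), which missed the threshold without ZT6 replicate 2 at 0.0586 and with values under 4 raised to 4 at 0.0943. AT4G39675 rose by 1.51 (adjusted p = 0.042), AT1G75960 rose by 0.80 (adjusted p = 0.0377) and AT1G22570 fell by 1.20 (adjusted p = 0.0495). Each of these last 3 calls was lost in at least 10 of the other settings, most single arrays left out among them. The other 4 members called have no gene name here.

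No difference among the 3 times was called for 77 members, while 76 (49.7%) passed the moderated F-test, against 62.1% of all probe sets. The means of ZT0, ZT6 and ZT12 spanned a median of 0.53 in the members and 0.58 in the 14016 probe sets above the limit, and 75 members had all 3 means within 0.5. AT1G53430, AT2G31110, AT3G51870, STN1, CSLA03, PDC2 and ALN were among those not called, as were all 4 cytoskeleton genes, for which limma's F-test called 0 and 0 had an unadjusted p under 0.05. With the replicate number as a block, NET1D was called lower at ZT12 than at ZT0, at -0.37 (adjusted p = 0.0179 by limma, against 0.0515 without the block). A missed threshold does not show that their levels were equal at these times.

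**Figure D4:**
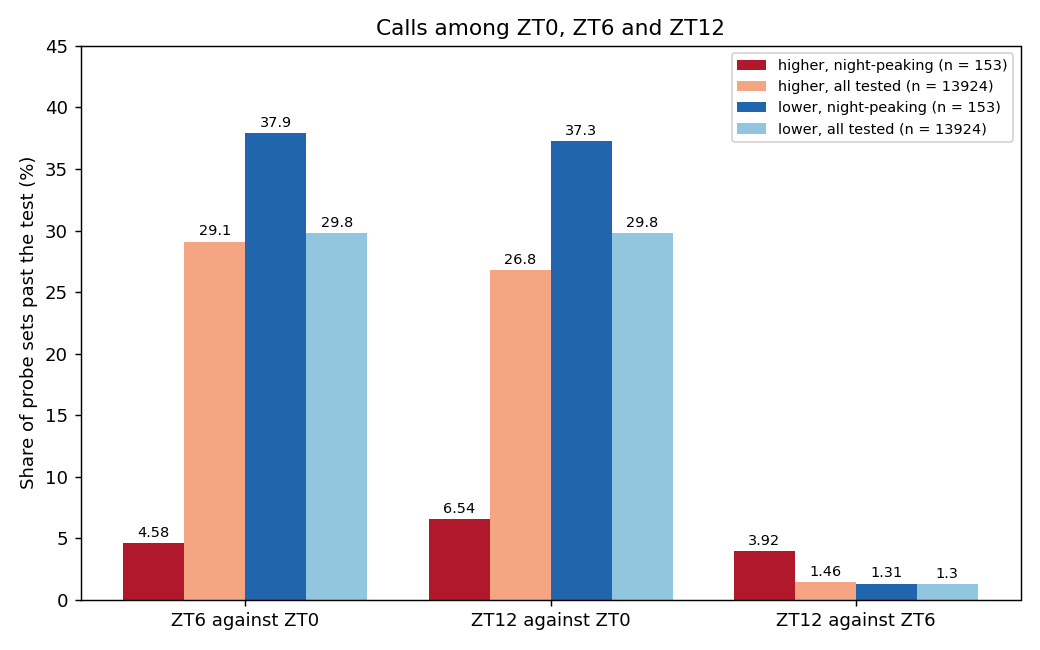
Share of the 153 members and of all 13924 probe sets tested that limma called higher or lower at the first named time, in percent. At ZT6 and at ZT12 against ZT0, 4.58% and 6.54% of the members were higher, while 29.1% and 26.8% of all probe sets were.

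Certain of these calls on named genes depended on 1 array. Of 61 calls on named members, 15 missed the threshold when some single array was left out. Leaving out ZT0 replicate 2 did so for the ZT12 falls of AT1G22570, AT2G41990, AT4G26600, AT5G57580, AT4G32350, AT4G33940 and AT2G35470, with adjusted p of 0.0661 to 0.145, for the ZT12 rise of AT3G60420 at 0.0516, and for the ZT6 falls of AT1G07135 at 0.162 and AT4G19530 at 0.0563. AT5G57580 missed it without most of the other arrays as well. The rise of AT3G04210 was lost without ZT12 replicate 3 (0.0632), and its ZT0 arrays, 4.83 to 6.80, spread more than those of the other times.

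The 3 ZT18 arrays themselves were not alike for every member. Their SD at ZT18 had a median of 0.18, against 0.20 over all probe sets above the limit. The rule favours members whose ZT18 arrays lie close together, so this difference is partly set by it. The SD exceeded 0.5 in 6 members. Of these, AT2G48030 measured 10.04, 9.32 and 8.96, AT1G75960 9.57, 8.60 and 8.47, and AT4G39675 8.34, 7.50 and 7.40, with replicate 1 the highest in each. Over the 153 members, replicate 1 was the highest ZT18 array in 76, replicate 2 in 44 and replicate 3 in 33. The same split over all probe sets was not calculated, so it cannot be read as a trait of the members. The medians of the members on these arrays were close, at 9.08, 9.07 and 8.995.

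Certain heat-shock genes differed more between the same arrays. Among the 28 genes of the heat-shock list, 8 had a named probe set, and 2 of these were under 4 on all arrays. Their summed level was 7.01 to 7.16 at ZT0, 8.23 to 8.89 at ZT6 and 8.56 to 8.85 at ZT12. On ZT18 replicates 1 to 3 it was 10.57, 11.23 and 9.32. The sum includes the genes excluded by name, which averaged 7.42 to 9.36 at ZT18. Not every gene was highest there: AT5G37670 averaged 4.33 at ZT18 and 5.12 at ZT6, and Fes1A 5.67 at ZT18 and 5.84 at ZT12. The excluded Hop3 measured 7.80, 8.87 and 6.24 at ZT18 and AT5G48570 9.39, 10.02 and 8.67. Their order, replicate 2 highest and replicate 3 lowest, was that of 27 of the 153 members (17.6%), CIL among them, and of 11.2% of all probe sets tested. AT4G21870, the HSP20-like member, was highest on replicate 1. Whether whatever raised Hop3 and AT5G48570 at ZT18 had a part in the members' levels was not tested.

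RNA quality moved with the time too. The chip carries control probe sets at the 3' and the 5' end of the same transcripts, and their difference grows as RNA breaks down or is copied short. This 3' minus 5' signal, averaged over 6 pairs, was 4.12, 4.67 and 4.39 at ZT18 and 3.48 to 3.97 on the other 9 arrays, without overlap. With it as a covariate in a fit over all 12 arrays, the members' median difference between ZT18 and the other times was 1.34 in place of 1.40. All 153 members remained above 0 and 152 above 0.5. Without the covariate the rule puts every member above 0.5, so these counts partly follow from it. The covariate's slope rests on differences among arrays of the same time, since the signal did not overlap between ZT18 and the rest. The fit therefore cannot tell RNA quality apart from the time of harvest. Against the next highest time the median was 1.01 in place of 1.11, and 143 members were at 0.5 or more.

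**Figure D5:**
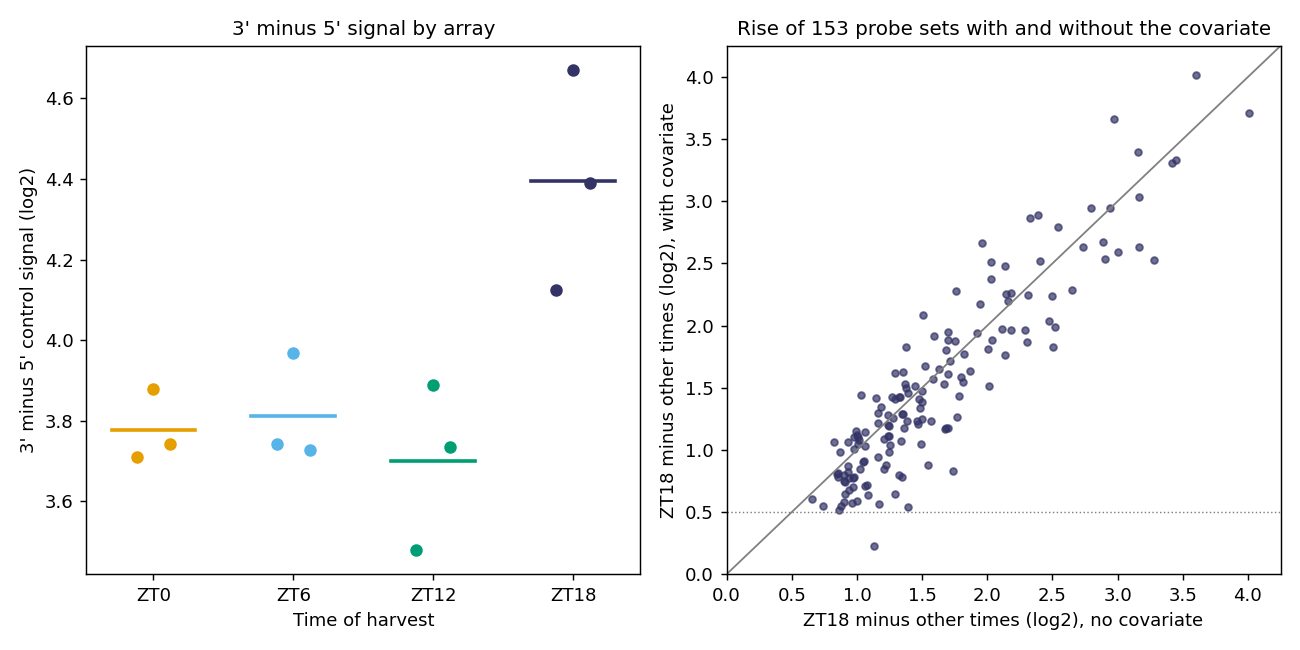
Left, the 3' minus 5' control signal (log2) of each array with a bar at the mean of each time: the ZT18 arrays lie between 4.12 and 4.67, above all others. Right, the ZT18 difference of each member from the other times (log2) without and with that signal as a covariate: the line marks equal values, the dotted line 0.5, and 152 of 153 members lie above the dotted line. Without the covariate all members exceed 0.5 by the rule.

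Few genes of known night and clock pathways could be set beside the members. Of 197 genes on 11 lists, 48 had a named probe set, and AT4G33980 alone was a member. On the whole chip, 153 of 22746 probe sets were members. The clock list had 4 named genes of 29. COR27, the close relative of AT4G33980, averaged 12.21 ± 0.16 (SD, n = 3) at ZT18 and 12.53 ± 0.22 at dawn. Its means were 6.32 ± 0.76 at midday and 9.20 ± 0.12 in the evening. The dawn and night levels of COR27 were thus close. AT4G33980 stood higher at night than at dawn, which the rule demands of every member. Between ZT6 and ZT12, COR27 rose by 2.88 (adjusted p = 0.00215 by limma), while AT4G33980 differed by 0.33 (adjusted p = 0.713); the difference between these genes was not tested. GI, an evening clock gene, was highest by day, at 8.62 ± 0.06 at ZT6.

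Genes known to respond to darkness and sugar starvation are given for comparison. Of 25 on the list, 6 had a named probe set. With 153 members among 22746 probe sets, that is too few to read anything from the absence of members. All 6 were lower at both ZT6 and ZT12 than at ZT0 by limma, as were 24.6% of all probe sets, with medians of -1.63 and -2.07. MCCA, a subunit of the enzyme that breaks down leucine, averaged 14.09 ± 0.04 (SD, n = 3) at ZT18, over 14.46 ± 0.03 at dawn, 12.34 ± 0.07 at midday and 12.03 ± 0.06 in the evening. IVD, an earlier step of the same pathway, averaged 11.94 ± 0.14 at ZT18 and 12.39 ± 0.18 at dawn. Both were thus high in the dark and at its end, with dawn the higher. Of the 9 ATG8 autophagy genes, 6 were lower at ZT6 and 6 at ZT12 than at ZT0 by limma, as were 29.8% of all probe sets in each comparison. The named genes of starch degradation (2), folding in the endoplasmic reticulum (5), shade and elongation (3) and cold and abscisic acid (4) held no member. With members this rare on the whole chip, nothing can be read from these absences either.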

How the data were processed

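The deposited values are log2 expression levels per probe set of an Arabidopsis Affymetrix array, 1 column per array, made by the authors with GCRMA, R 3.1 and affy 1.42.3, per the submitters' processing notes. No probe-level data or detection calls were used here, and depth does not apply: 3 arrays per time limit the precision. The labels do not say whether replicates came from separate plates, and the spread behind each p-value is that of the deposited arrays, which may be technical. No array pair held the same values throughout (73 to 190 exactly equal values, as deposited, of 14016).

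Members and lists were chosen with earlier results of these data known. ZT18 contrasts were used by the rule and are described without a test. For the other times, limma 3.58.1 (lmFit, eBayes with trend, two-sided; R 4.3.3) was fitted over 13924 probe sets with 4 or more on at least 3 of the 9 arrays. On simulated data for ZT12 against ZT6 (13924 probe sets), 21% of changes of 0.5 and 88% of changes of 1 were recovered, with 1 false call. The simulation used independent normal noise and 100 changed probe sets per size, none with a mean under 6. It left out repeated values and arrays that deviate together, so these are not error rates of the real comparison.

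Named by rule were members with 1 gene: the 20 largest margins, the 5 largest rises and falls called per comparison, list genes, up to 4 per role word group, and the 3 nearest each side of the margin. Role words were matched on gene names, since the tables hold no descriptions. The rule named 34 of the 74 named members; the other 40 and the role groups were chosen after their values were seen. Gene names come from GEO's platform annotation. Promoter motifs were not analysed here. Alternatives changed the filter, a floor at 4, the scaling, the trend, the replicate block, the 3' minus 5' covariate, the labels and each array left out.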

Additional observations from a re-analysis of the deposited data

How the results depend on the processing

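The counts of members called at ZT6 against ZT0 (65), at ZT12 against ZT0 (67) and in the F-test (76) stayed within 1.5 times under each alternative except the harvest-time entry of the labels. With single arrays left out they ran from 55 to 68, 54 to 71 and 66 to 81. The count at ZT12 against ZT6 (8) ran from 0 to 15 with single arrays left out, and was 2 with no filter, 13 with the replicate block and 4 with the 3' minus 5' covariate. Over all probe sets that comparison called 384, against 92, 953 and 166 under those settings, and 18 without ZT6 replicate 2. The causes were not tested, except that the no-filter fit tests more probe sets. The number of members was 25 at a margin of 1. It ran from 153 to 254 with single arrays left out, which can add members but not remove any. Centring gave 141 and quantile scaling 154, of which 137 and 139 are members. The median ZT18 rise ran from 1.37 to 1.46 with single arrays left out. Leaving out an array cannot bring any member's rise under the margin that the rule asks for. That range is therefore partly set by the rule and does not test the rise. Under the other alternatives with the title's times the median ran from 1.34 to 1.43.

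Arrays with the same replicate number deviated together between some times and not others. Their correlations were above 0.1 for all 3 numbers between ZT0 and ZT12 (0.19 to 0.40) and between ZT0 and ZT18 (0.185 to 0.32), but for 0 of 3 numbers between ZT0 and ZT6 (0.010 to 0.044) and between ZT6 and ZT12 (-0.15 to 0.026). The replicate block gave 71, 13, 70 and 82 members called at ZT6 against ZT0, ZT12 against ZT6, ZT12 against ZT0 and in the F-test, left the median rise at 1.40, lost none of the 61 calls on named members and added 5, of which 1 was at ZT12 against ZT0 (NET1D).

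With groups from the harvest-time entry, limma called 0 members in each of the 4 tests (0 at an unadjusted p under 0.05), the rule found 0 and the median rise was -0.57. All 61 calls on named members were lost, 18 with the opposite sign. At ZT6 against ZT0 the values were 0.0762 for AT4G28085, 0.00415 for AT2G41990, 0.28 for AT2G48030, 0.0958 for UGT85A4, -0.020 for AT2G34510, 0.12 for AT4G35730, -0.0843 for AT5G44680, 0.0166 for UGT71C5, 0.40 for AT4G33980, 0.0858 for AT2G35470 and 0.23 for AT4G19530. At ZT12 against ZT0 they were 0.0289 for AT1G35350, 0.45 for AT1G22570, -0.32 for AT3G04210, -0.16 for AT3G60420 and -0.0379 for CML30, and at ZT12 against ZT6 -0.52 for AT1G17665 and -1.01 for AT4G39675. Under this entry each group mixes arrays that the titles give to different times.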

Other observations

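The member with the second largest margin has no gene name in the annotation used here. Probe set 245038_at averaged 8.10 at ZT18, over 5.08 at dawn, 3.40 at midday and 3.79 in the evening, with a margin of 2.26. Probe sets 245265_at and 248037_at, also unnamed, followed with margins of 1.93 and 1.87 and ZT18 means of 8.48 and 7.32. They were chosen after their values were seen. Probe set 259671_at, with a margin of 1.70, differed from these in that its dawn mean of 7.51 lay below its midday mean of 8.31 and its evening mean of 8.30, before 10.34 at ZT18.

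Of the 220 probe sets that the rule gave when applied at dawn, 147 (66.8%) had their next highest mean at ZT18. The share of all probe sets with ZT18 the highest of ZT6, ZT12 and ZT18 was not calculated. Whether 66.8% is unusual therefore cannot be read from this count.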
